A study of Mus musculus with 6 samples.

Results

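The circular RNAs (circRNAs) described here come from genes of the ubiquitin system, taken by gene symbol: the Ube2, Ube3, Ube4, Ubr, Usp, Trim, Rnf, March, Fbxo, Fbxl, Fbxw, Cul, Klhl, Herc and Hectd families together with Huwe1, Itch, Nedd4, Nedd4l and Mib1. Of 11171 circRNAs listed in mouse cortex, 314 had such a gene as their single host, and these came from 115 of the 3469 host genes. The rule uses gene symbols only. Some matches by symbol are not what the stem says: Ube2cbp encodes an E3 ligase and Usp6nl a GTPase-activating protein, and together they gave 6 of the 314 circRNAs.

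Cortex was compared between 3 Control mice and 3 mice with temporal lobe epilepsy (TLE), with 1 rRNA-depleted total RNA library per mouse. All 6 were male C57BL/6 mice of 6 weeks. TLE mice received scopolamine methyl bromide and then pilocarpine, their Status Epilepticus was ended with diazepam, and cortex was taken 24 h after Status Epilepticus. Control mice received saline at each of these steps and no agent, so that pilocarpine, scopolamine methyl bromide, diazepam and the seizures are present or absent together and cannot be told apart. The cortex was taken whole, and fewer cells of a type and less RNA per cell cannot be told apart in such samples.

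Ubiquitin is activated by an E1 enzyme, passed to an E2 conjugating enzyme and placed on a protein with the help of an E3 ligase, while deubiquitinases remove it again. HECT ligases carry the ubiquitin themselves, RING and U-box ligases bring the E2 to the substrate, and cullins build large RING ligases whose F-box or kelch adaptors choose the substrate. In neurons the system sets the turnover of synaptic receptors, scaffolds and signalling proteins. A circRNA forms when the end of an exon is spliced back to the start of the same or an earlier exon, and only reads across that back-spliced junction tell it from the linear mRNA of the host.

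Levels are given in SRPBM, back-spliced reads scaled to the mapped reads of the library. SRPBM counts reads over a single junction, so the length of a circle does not enter, and 1 read was worth between 8.55 and 10.33 SRPBM in the 6 libraries. The smallest value above 0 was 2 reads. A circle listed at 0 had fewer than 2 reads or was not called in that library, which the values do not tell apart. The libraries held 32504 to 56516 junction reads, and the total SRPBM was 347492 ± 14939 in Control and 411269 ± 76664 in TLE (SD, n = 3 each), overlapping between the groups. Among marker hosts of cell types, 6 of 9 neuron genes gave circRNAs, summed to 3196 to 3557 SRPBM in Control and 4431 to 4993 in TLE. Every TLE library lay above Control for Rims2 (means of 1999 and 2842 SRPBM), Homer1 (565 and 861) and Grin2a (260 and 356). Grin2b and Syt1 overlapped between the groups. Among all hosts above 0 in at least 3 libraries, 10.7% had every TLE library above Control. These neuron values are levels and not shares of the library, and the mean total SRPBM was higher in TLE. Rbfox3 had 0, 18.6 and 34.5 SRPBM in Control and 0 throughout TLE. The only astrocyte host was Slc1a2, at 0 in 4 libraries and 17.2 and 34.6 SRPBM in the others, and no host was listed among the oligodendrocyte, precursor, microglia, endothelial or pericyte genes. A circRNA table therefore checked the tissue for neurons only, and the part of the neuron markers' level in the results was not tested.

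The junctions that carry the main results are shown so that each circle can be recognised. Each was read from the GENCODE M21 transcript that holds both ends (GRCm38, the build that the submitters' processing notes call mm10), and runs 5′ to 3′ from the last 20 bases of the final exon, in lower case, into the first 20 bases of the first exon, in capitals. The first 4 belong to the highest circles with both ends on exon boundaries, the fifth to the circle past the fold threshold whose ends lie on exon boundaries, and the last 2 to circles listed at 0 in 1 library only.
Rnf169 mmu_circ_0009687 (exons 2 to 4 of 6, chr7:99935162-99955540, minus strand): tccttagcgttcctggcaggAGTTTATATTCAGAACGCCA
Ube2k mmu_circ_0008217 (exons 2 to 6 of 7, chr5:65565989-65594548, plus strand): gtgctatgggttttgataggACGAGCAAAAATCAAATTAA
Fbxl17 mmu_circ_0003720 (exons 2 to 4 of 9, chr17:63471408-63490887, minus strand): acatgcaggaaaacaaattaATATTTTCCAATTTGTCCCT
Klhl2 mmu_circ_0009964 (exons 2 to 4 of 15, chr8:64811680-64834568, minus strand): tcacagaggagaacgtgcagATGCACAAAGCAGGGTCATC
Rnf157 mmu_circ_0000610 (exons 3 to 8 of 19, chr11:116358669-116362373, minus strand): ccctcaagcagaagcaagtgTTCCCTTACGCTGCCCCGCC
Ubr3 mmu_circ_0006331 (exons 2 to 5 of 39, chr2:69914414-69922933, plus strand): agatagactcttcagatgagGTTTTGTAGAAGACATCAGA
Klhl2 mmu_circ_0009962 (exons 2 to 5 of 15, chr8:64779698-64834568, minus strand): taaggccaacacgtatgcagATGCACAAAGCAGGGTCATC
The 2 Klhl2 circles start at the same exon, so their capitals are the same and only the lower-case letters tell them apart. The identifiers are those of the deposited table.

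Ubiquitin circRNAs took nearly the same share of every library. Their summed level was 8101, 7717 and 8588 SRPBM in Control 1, 2 and 3 and 8181, 9635 and 11664 SRPBM in TLE 1, 2 and 3, or 8135 ± 437 against 9827 ± 1749 (SD, n = 3 each). TLE 1 lay within the Control range, and the other TLE libraries lay above it. As a share of the library's SRPBM they made up 2.30, 2.33 and 2.39% in Control and 2.44, 2.36 and 2.39% in TLE, with overlapping groups and means of 2.34 ± 0.041 and 2.39 ± 0.041%. The number of ubiquitin circRNAs above 0 was lowest in TLE 1, the shallowest library, at 122, and highest in TLE 3, the deepest, at 168.

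**Figure D1:**
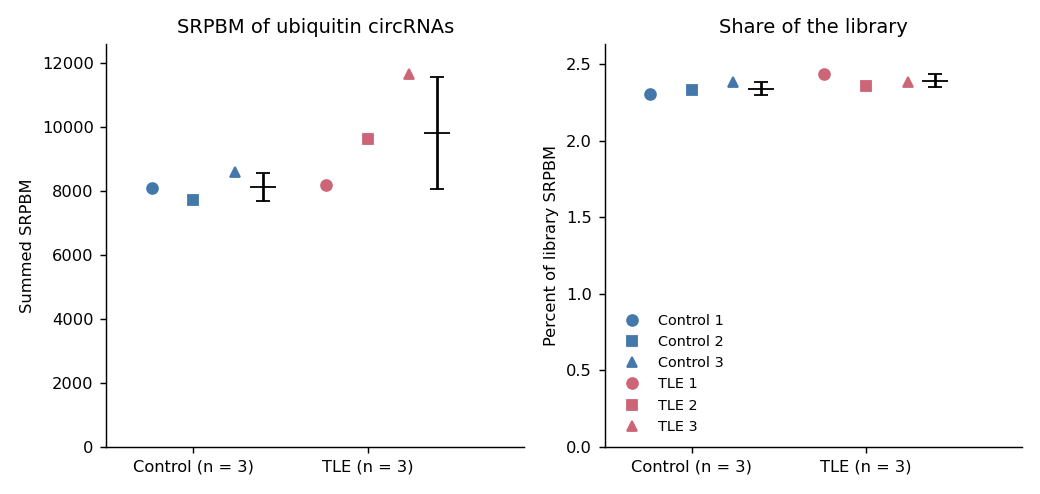
Summed SRPBM of the ubiquitin circRNAs (left) and their percent of all SRPBM in the library (right), with 1 point per library and the mean ± SD beside each group of 3. The sum reached 11664 SRPBM in TLE 3, while the share stayed between 2.30 and 2.44% in all 6 libraries.

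Few of the genes gave more than a handful of circles. Of the 115 hosts, 48 had 1 circRNA and 18 had 5 or more, with a median of 2, as over all hosts. Usp34, a large deubiquitinase, gave 13 circles, the ligases Ubr3 and Trim37 gave 11 each, and the HECT ligases Herc3 and Herc4 gave 10 and 8. The 15 highest circles held 45.3% of the SRPBM of the 314, and 43.3% of the 314 were above 0 in 1 library only, against 45.4% of all circRNAs. In all 6 libraries 46 ubiquitin circles were found (14.6%, against 13.9% of all).

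Many circles were short stretches of coding exons that began at exon 2. Both ends lay on exon boundaries of the host in 93.6% of ubiquitin circles and 83.6% of all circRNAs listed, the latter including rows with no single host. Of the 292 that could be placed on 1 transcript, 39.7% started at exon 2, against 29.9% of all placed circRNAs, and these held 62.2% of the SRPBM of placed ubiquitin circles, against 44.2%. The median circle had 4 exons in both sets and a spliced length of 583.5 nt, against 608 nt. The intron before the circle had a median of 7560 nt, against 10308 nt, and the intron after it 5454 nt, against 8691.5 nt. The start codon lay in 17.1% of placed ubiquitin circles and in 15.2% of all.

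Of the 22 ubiquitin circles that could not be placed, 11 started at an annotated exon and ended inside the last exon of the host. Among them were the Ube2e3 circle mmu_circ_0006408, which began at exon 4 of 6, and the longer Rnf169 circle mmu_circ_0009686, which began at exon 2 of 6 and ended 2797 bases from the nearest annotated exon end. These 2 stood among the 15 highest circles, and the other 13 were placed, 10 of them starting at exon 2.

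**Figure D2:**
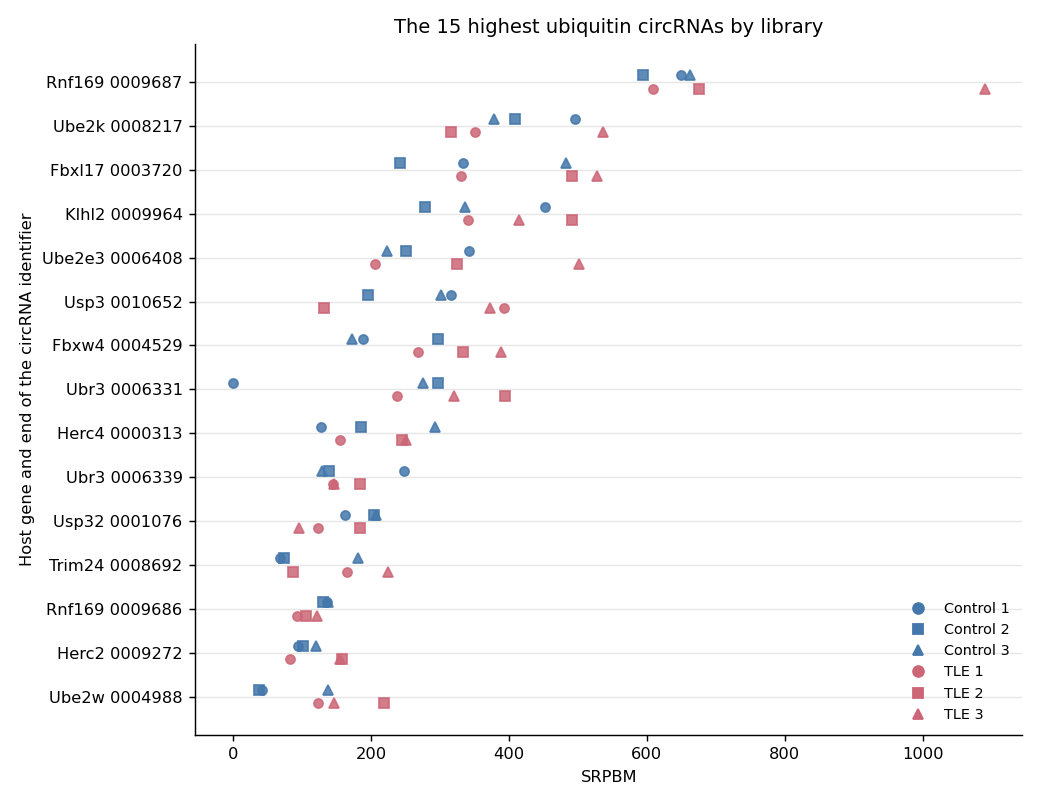
SRPBM of the 15 highest ubiquitin circRNAs, 1 row per circle and 1 point per library, with Control above the line and TLE under it. Points of the groups overlap for all but the longer Rnf169 circle mmu_circ_0009686, whose 3 TLE points lie at 93.0 to 121 SRPBM and whose Control points lie at 130 to 138, and the Ubr3 circle mmu_circ_0006331 has 1 Control point at 0.

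The comparison of TLE with Control asked which ubiquitin circles changed a day after Status Epilepticus. On the scale of log2(SRPBM + 17.1), 2 ubiquitin circles of the 130 tested were past the threshold as higher in TLE (1.54%, against 1.26% of all 4271 circRNAs tested), those of Klhl8 and Rnf157, and 0 were past it as lower (against 0.304%). Being tested needed a value above 0 in at least 3 libraries, which 184 of the 314 did not have. A circle was past the threshold where limma gave it an unadjusted p under 0.05 and its log2 fold change reached 1.5 or -1.5. With Benjamini-Hochberg adjustment over all circRNAs tested, limma called 0 ubiquitin circles, the smallest adjusted p among them being 0.838, while 9 (6.92%) had an unadjusted p under 0.05, against 5.2% of all. In 12 of the 130 (9.23%, against 8.94%) every TLE library lay above every Control library, and in 4 (3.08%, against 2.11%) every TLE library lay below. These shares are near those of all circRNAs. Of the 130, 5 were at 0 in a whole group, those of Klhl8, Klhl7, Klhl32, Rnf180 and Usp32 described further on, and so were 116 of the 4271. Such a circle entered the test only through the group where it was high, so its groups had to differ, and its p supports nothing.

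The median log2 fold change was 0.15 over the tested ubiquitin circles and 0.17 over all tested circRNAs. With circles at 0 in a whole group set at their bound, these medians were 0.12 and 0.15. With the 6 libraries brought to equal total SRPBM the medians were -0.02 and 0.01. Of the 22 ubiquitin circles with 60 or more reads over the 6 libraries, 17 had a log2 fold change above 0 and 5 below. Among all 755 tested circRNAs with that many reads, 516 were above 0 and 239 below.

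**Figure D3:**
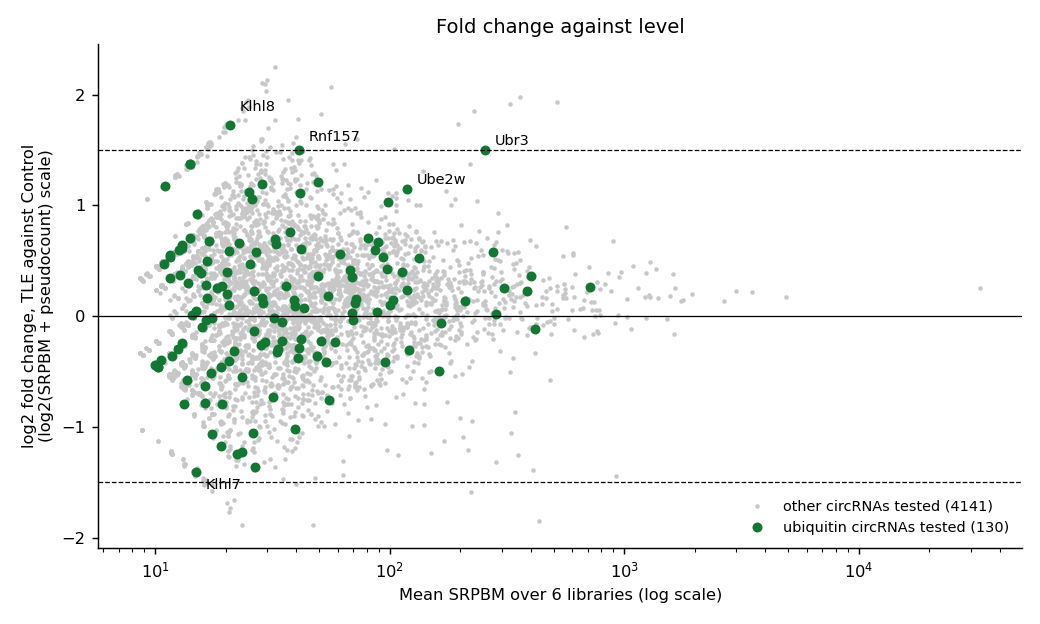
Log2 fold change of TLE against Control on the log2(SRPBM + 17.1) scale, against the mean SRPBM over 6 libraries on a log axis, with the 130 tested ubiquitin circRNAs in green and all other tested circRNAs in grey. Dashed lines mark 1.5 in either direction, which the circles of Klhl8 (1.73) and Rnf157 (1.502) reached with an unadjusted p under 0.05. The Ubr3 circle lies just under the line at 1.496, with 1 Control library at 0.

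Klhl8, a kelch adaptor of cullin ligases, had the ubiquitin circle with the smallest p. This circle, mmu_circ_0007665 (chr5:103885907-103886287, minus strand), was listed at 0 in each Control library and had 20.7, 52.6 and 51.9 SRPBM in TLE 1, 2 and 3. The groups did not overlap, and the circle was at least 1.58-fold higher in TLE when Control was set at its floor of 3 reads per library (limma, log2 fold change 1.73 ± 0.59 SE, unadjusted p = 0.0094, Benjamini-Hochberg adjusted p = 0.838). With Control at 0 throughout, it had entered the test only through TLE. Without any 1 of the TLE libraries it was above 0 in only 2 libraries and was not tested. It ends with exon 2 and starts 3 bases inside that exon. The circle of the whole exon 2, mmu_circ_0007666, starts at the annotated base and measured 128, 27.9 and 43.1 SRPBM in Control and 72.3, 17.5 and 60.6 in TLE, with overlapping groups. Summed over both, the exon 2 circles of Klhl8 measured 128, 27.9 and 43.1 SRPBM in Control and 93.0, 70.1 and 112 in TLE, and these groups overlapped.

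Rnf157 encodes a RING ligase that is abundant in brain. Its only circle, exons 3 to 8, measured 0, 46.5 and 0 SRPBM in Control 1, 2 and 3 and 41.3, 123 and 34.6 in TLE 1, 2 and 3. Control 2 lay above TLE 1 and TLE 3, so the groups overlapped, although the circle was past the threshold (limma, log2 fold change 1.502 ± 0.69 SE, unadjusted p = 0.043, Benjamini-Hochberg adjusted p = 0.881). It was no longer past the threshold without Control 1 (1.19), without Control 3 (1.19) or without TLE 2 (1.05), nor at equal total SRPBM (1.39), with a pseudocount of 1 SRPBM (unadjusted p = 0.072) or among the better measured features only (unadjusted p = 0.064), all by limma.

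Among the E2 enzymes, 8 hosts, Ube2cbp included, gave 17 circles, none past the threshold. Ube2k, which builds chains that mark proteins for the proteasome, had the second highest ubiquitin circle, at 496, 409 and 379 SRPBM in Control and 351, 316 and 536 in TLE. Those groups overlapped, with a log2 fold change of -0.12 ± 0.26 (SE). The Ube2e3 circle measured 342, 251 and 224 SRPBM in Control and 207, 324 and 502 in TLE, again with overlap. Ube2w, which puts ubiquitin on the amino terminus of proteins, had 42.7, 37.2 and 138 SRPBM in Control for its circle of exons 2 to 5, and 124, 219 and 147 in TLE. Control 3 alone reached the TLE range, and the log2 fold change was 1.15 ± 0.44 (SE, limma, unadjusted p = 0.018, Benjamini-Hochberg adjusted p = 0.838). Without Control 3 it was 1.63, past the threshold. Without any other single library it was between 0.87 (Control 2) and 1.31 (TLE 1), and at equal total SRPBM it was 0.96, all short of it.

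The HECT ligases gave 58 circles from 14 hosts, and none was past the threshold. Their summed level was 872, 995 and 1025 SRPBM in Control and 795, 938 and 1082 in TLE, with overlap. As a share of the library it was 0.248, 0.301 and 0.285% in Control and 0.237, 0.229 and 0.221% in TLE, every TLE library being below every Control library. The highest HECT circle was that of Herc4, exons 14 to 18, at 128, 186 and 293 SRPBM in Control and 155, 245 and 251 in TLE. The giant ligase Herc2 followed with exons 13 to 16 of 93, at 94.0, 102 and 121 SRPBM in Control and 82.6, 158 and 156 in TLE. Both overlapped between the groups. Nedd4l, known for its control of sodium channels, had a circle of exons 17 to 24 with 42.7, 27.9 and 25.8 SRPBM in Control and 0, 17.5 and 0 in TLE. All TLE libraries lay below Control, at least 1.16-fold lower with TLE at its floor of 3 reads per library, and the fitted log2 fold change was -1.17 ± 0.61 (SE, limma, unadjusted p = 0.072, Benjamini-Hochberg adjusted p = 0.922). The hosts Nedd4, Itch, Ube3c and Huwe1 had summed levels of 0 to 87.7 SRPBM per library, and each overlapped between the groups. Herc3, with its 10 circles, summed to 128, 55.8 and 68.9 SRPBM in Control and 207, 52.6 and 156 in TLE, the TLE group having both the lowest and the highest value.

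The 5 Ubr genes, grouped by symbol, share a domain that in classic N-recognins reads destabilizing amino termini. Ubr3 stood out among them and had 11 of their 20 circles. Its highest circle, exons 2 to 5, was listed at 0 in Control 1 and measured 298 and 276 SRPBM in Control 2 and 3, and 238, 395 and 320 in TLE. Leaving the 0 aside, Control and TLE overlapped. The log2 fold change was 1.496 ± 0.74 (SE, limma, unadjusted p = 0.060, Benjamini-Hochberg adjusted p = 0.922), just short of the threshold. The value rested on Control 1, without which it was 0.11 (limma, unadjusted p = 0.737). It was past the threshold without Control 2 (2.21), without Control 3 (2.16) and without TLE 1 (1.68). Control 1 had instead the highest value of the other main circle, exons 24 to 27, at 248 SRPBM, against 139 and 129 in Control 2 and 3 and 145, 184 and 147 in TLE. Exons 2 to 5 made up 0, 59.3 and 60.4% of the Ubr3 SRPBM in Control 1, 2 and 3 and 51.1, 51.7 and 50.7% in TLE, with overlap. Picked out after its values were seen, this share carries no test. Listed at 0 in 1 library, with 5 or more reads in each of the other 5, were 2 of 36 ubiquitin circles with that depth (5.56%, against 7.01% of all circRNAs), the other being the Klhl2 circle of exons 2 to 5, at 0 in TLE 3.

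**Figure D4:**
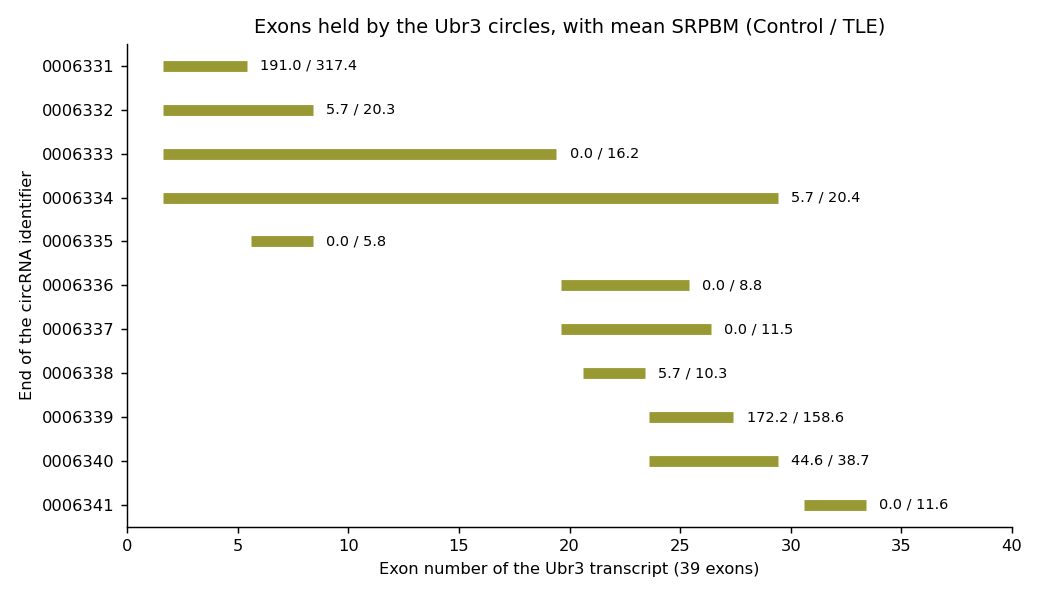
Exons held by each of the 11 Ubr3 circles along the 39 exons of the transcript, with the mean SRPBM of Control and of TLE (n = 3 each) written beside each bar. The circles of exons 2 to 5 (191 and 317 SRPBM) and 24 to 27 (172 and 159 SRPBM) hold most of the signal, and 4 circles start at exon 2.

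Ubr1, the classic N-recognin, had a summed level of 42.7, 27.9 and 34.5 SRPBM in Control and 0, 17.5 and 17.3 in TLE. It was the only tested ubiquitin host at which every TLE library lay below every Control library, with a log2 fold change of -0.92 ± 0.62 (SE, limma, unadjusted p = 0.152). The U-box ligase Ube4b summed to 59.8, 46.5 and 0 SRPBM in Control and 20.7, 35.1 and 26.0 in TLE, with overlap.

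RING ligases held the most SRPBM of any role, 80 circles from 33 hosts. Their sum was 2418, 2027 and 2455 SRPBM in Control and 2510, 2744 and 3470 in TLE, every TLE library above every Control library by a narrow margin. As a share of the library the groups overlapped, at 0.612 to 0.688% in Control and 0.671 to 0.748% in TLE. The Rnf169 circle of exons 2 to 4 was the highest ubiquitin circle, from a ligase that binds ubiquitylated chromatin at DNA breaks. It measured 649, 595 and 663 SRPBM in Control and 609, 675 and 1090 in TLE, with TLE 2 just above and TLE 3 well above the Control range and TLE 1 within it (log2 fold change 0.26 ± 0.24 SE).

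The longer Rnf169 circle, which starts at the same exon, went the other way, at 137, 130 and 138 SRPBM in Control and 93.0, 105 and 121 in TLE. Every TLE library lay below every Control library, with a log2 fold change of -0.31 ± 0.34 (SE, limma, unadjusted p = 0.376). Control 2 and TLE 3 had 14 reads each and differed only through what 1 read was worth. It made up 17.4, 17.9 and 17.2% of the Rnf169 circles in Control and 13.2, 13.5 and 10% in TLE, or 17.5 ± 0.39 against 12.2 ± 1.94% (SD, n = 3 each). This share was singled out after its values were seen, and carries no test.

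Rnf150, a membrane-bound RING ligase, had 76.9, 18.6 and 94.7 SRPBM in Control for its circle of exons 3 to 6 and 165, 96.4 and 138 in TLE, all above Control (limma, log2 fold change 1.03 ± 0.46 SE, unadjusted p = 0.039, Benjamini-Hochberg adjusted p = 0.878). Control 3 and TLE 2 had 11 reads each there, so their order came only from what 1 read was worth. Rnf115 had a single circle, exons 2 to 4, at 34.2, 18.6 and 17.2 SRPBM in Control and 62.0, 87.7 and 77.9 in TLE. The lowest TLE value there, of 6 reads, was above the highest Control value, of 4 reads (limma, log2 fold change 1.22 ± 0.50 SE, unadjusted p = 0.027, Benjamini-Hochberg adjusted p = 0.838). At equal total SRPBM the log2 fold change of this Rnf115 circle was 1.06 (limma, unadjusted p = 0.052). A circle of Rnf180, mmu_circ_0001791, listed at 0 in every Control library, had 31.0, 17.5 and 17.3 SRPBM in TLE, which is no more than 3 reads in any library, and no fold is given. Summed over its 4 circles, Rnf180 had 34.2, 0 and 25.8 SRPBM in Control and 93.0, 43.8 and 17.3 in TLE, with overlap. Trim24, a RING protein with a bromodomain, had 68.4, 74.4 and 181 SRPBM in Control for its circle of exons 2 to 7 and 165, 87.7 and 225 in TLE, with overlap. Trim37, a ligase with 11 circles, summed to 154, 112 and 94.7 SRPBM in Control and 155, 175 and 182 in TLE, so TLE 1 lay only just above Control 1. Mib1, which ubiquitylates Notch ligands, summed to 68.4, 18.6 and 25.8 SRPBM in Control and 0, 52.6 and 34.6 in TLE, with overlap.

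Cullins had 10 circles from 4 hosts. Cul1, the scaffold of the F-box ligases, summed to 59.8, 93.0 and 112 SRPBM in Control and 124, 123 and 234 in TLE, without overlap (limma, log2 fold change 0.73 ± 0.41 SE, unadjusted p = 0.093). Substrate adaptors gave 57 circles from 28 hosts, with sums of 2017, 1887 and 2067 SRPBM in Control and 2128, 2586 and 2760 in TLE. Every TLE library lay above Control there, whereas as a share of the library the groups overlapped (0.570 to 0.574% against 0.564 to 0.634%).

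Within the adaptors, the Fbxw genes had the largest ratio of TLE to Control in summed level, 1.48, at 530, 576 and 482 SRPBM in Control and 713, 842 and 796 in TLE, or 530 ± 47.0 against 783 ± 65.4 (SD, n = 3 each). In 4 of 20 families, Rnf, Fbxw, Trim and March, every TLE library lay above every Control library, and in 0 families below. As a share of the library only Trim and March kept this. March rested on 20 reads over 4 circles, none of them tested. Its sums were 17.1, 0 and 25.8 SRPBM in Control and 31.0, 61.4 and 43.3 in TLE. No such count is given for families of other genes. Over all hosts tested, 10.7% had every TLE library above Control and 1.95% below. The Fbxw4 circle of exons 2 to 5 had 188, 298 and 172 SRPBM in Control and 269, 333 and 389 in TLE, with Control 2 inside the TLE range (limma, log2 fold change 0.58 ± 0.29 SE, unadjusted p = 0.062). Its circle of exons 2 to 4 had 59.8, 65.1 and 43.1 SRPBM in Control and 82.6, 78.9 and 77.9 in TLE, without overlap, and its circle of exons 3 to 5 lay below Control, at 25.6, 18.6 and 43.1 against 0, 17.5 and 0 SRPBM. For exons 3 to 5, Control 2 and TLE 2 had 2 reads each. Fbxw7, the adaptor for cyclin E, Myc and Notch, had 76.9, 65.1 and 77.5 SRPBM in Control and 134, 114 and 95.2 in TLE for its circle of exons 2 to 4, without overlap (limma, log2 fold change 0.54 ± 0.37 SE, unadjusted p = 0.169).

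Fbxo16 was the highest Fbxo host, with 137, 177 and 60.3 SRPBM in Control and 31.0, 96.4 and 164 in TLE, and the groups overlapped. Fbxl17, an F-box adaptor that removes wrongly paired BTB proteins, had its circle of exons 2 to 4 at 333, 242 and 482 SRPBM in Control and 331, 491 and 528 in TLE, with overlap. Klhl2, a kelch adaptor of Cul3 ligases that binds actin, had its circle of exons 2 to 4 at 453, 279 and 336 SRPBM in Control and 341, 491 and 415 in TLE, with overlap. Its circle of exons 2 to 5 made up 13.1, 15.4 and 30.0% of the Klhl2 SRPBM in Control and 28.3, 24.3 and 0% in TLE. Klhl7 and Klhl32 were on opposite sides at low levels. The Klhl7 circle of exons 2 to 7 had 17.1, 46.5 and 25.8 SRPBM in Control and 0 in all TLE libraries, at least 1.07-fold lower with TLE at its floor of 3 reads per library. The Klhl32 circle of exons 8 to 10, listed at 0 in every Control library, had 41.3, 17.5 and 26.0 SRPBM in TLE, at least 1.07-fold higher by the same floor.

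**Figure D5:**
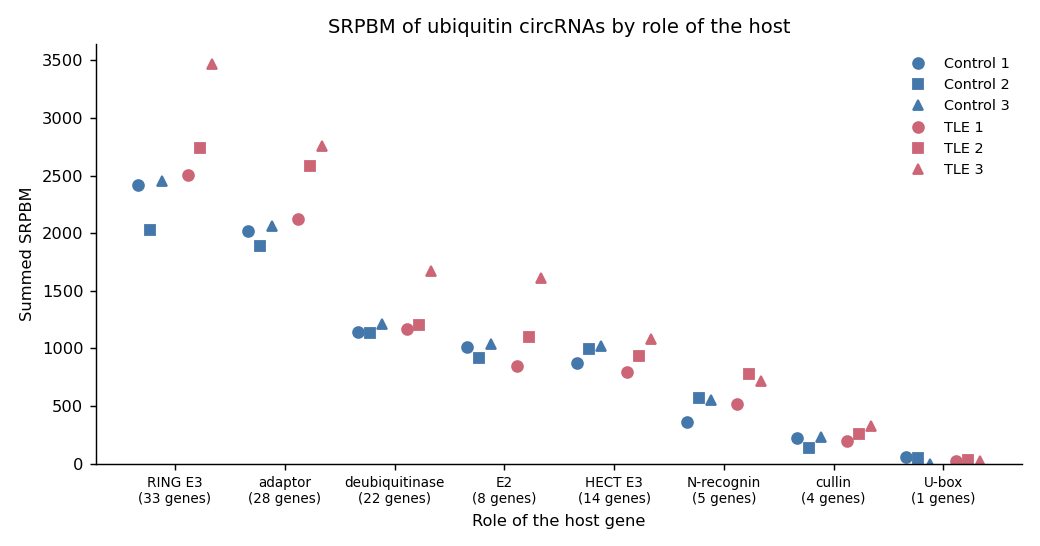
Summed SRPBM of the ubiquitin circRNAs by the role of the host gene, 1 point per library. RING ligases and adaptors have all TLE points above the Control points, and the other 6 roles overlap.

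Deubiquitinases gave 69 circles from 22 Usp genes, Usp6nl included, the most of any family. Their sum was 1145, 1134 and 1215 SRPBM in Control and 1167, 1201 and 1670 in TLE, with overlap, and the median log2 fold change over their 20 tested circles was -0.26. The highest was the circle of exons 2 to 8 of Usp3, which removes ubiquitin from histones, at 316, 195 and 301 SRPBM in Control and 393, 132 and 372 in TLE. TLE 2 was the lowest of the 6 libraries and TLE 1 the highest. The Usp32 circle of exons 2 to 5 had 162, 205 and 207 SRPBM in Control and 124, 184 and 95.2 in TLE, with overlap (log2 fold change -0.49 ± 0.33 SE). Another Usp32 circle, exons 23 to 26, was listed at 0 throughout Control and had 41.3, 17.5 and 26.0 SRPBM in TLE, at least 1.07-fold higher by the floor of 3 reads per library. Usp34, spread over 13 circles, summed to 42.7, 83.7 and 43.1 SRPBM in Control and 51.6, 87.7 and 156 in TLE, with overlap. Usp15, which acts on TGF-beta receptors and their SMADs, had 59.8, 55.8 and 51.7 SRPBM in Control and 72.3, 149 and 95.2 in TLE for its circle of exons 2 to 8, without overlap (limma, log2 fold change 0.70 ± 0.41 SE, unadjusted p = 0.107).

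Summed over all circles of a host, 78 of the 115 ubiquitin genes were above 0 in at least 3 libraries and were tested. Rnf157, with its single circle, was past the threshold as higher (1.28% of 78, against 1.53% of all 2157 hosts tested), and Usp25 as lower (1.28%, against 0.371%). With Benjamini-Hochberg adjustment limma called 0 hosts among them, with a smallest adjusted p of 0.766, and 3 (3.85%) had an unadjusted p under 0.05, against 6.17% of all. In 7 hosts every TLE library lay above Control (8.97%, against 10.7%), namely Trim37, Fbxw7, Rnf150, Usp15, Rnf216, Cul1 and Rnf115, and in 1, Ubr1, below (1.28%, against 1.95%). The median log2 fold change of the hosts was 0.20 for the ubiquitin genes and 0.20 for all. Usp25, a deubiquitinase with 2 circles, summed to 42.7, 74.4 and 68.9 SRPBM in Control and 0, 0 and 51.9 in TLE. TLE 3 lay within the Control range, and the log2 fold change was -1.51 ± 0.67 (SE, limma, unadjusted p = 0.035, Benjamini-Hochberg adjusted p = 0.766). Usp25 was no longer past the threshold without Control 2 (-1.40), Control 3 (-1.44), TLE 1 (-1.18) or TLE 2 (-1.18), nor with a pseudocount of 1 SRPBM (limma, unadjusted p = 0.057).

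Other genes of the pathway, from lists of E1 enzymes, further ligases, adaptors and complex subunits, further deubiquitinases and the proteasome with ubiquitin and VCP partners, gave 187 circRNAs from 58 hosts. None of the 68 tested circles was past the threshold, and of the 35 tested hosts 2 were past it as higher, against 1.53% of all hosts tested, and 0 as lower, against 0.371%. With Benjamini-Hochberg adjustment limma gave them adjusted p of 0.766 (Peli1) and 0.728 (Nploc4). These were Peli1, a ligase of innate immune signalling, at 25.6, 0 and 0 SRPBM in Control and 51.6, 26.3 and 86.5 in TLE, and Nploc4, a cofactor of VCP, at 0 throughout Control and 31.0, 35.1 and 43.3 SRPBM in TLE. Nploc4 had entered the test only through TLE.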

How the data were processed

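The authors called circRNAs with CIRI on BWA-MEM alignments of rRNA-depleted paired-end reads and deposited their signal as SRPBM (back-spliced reads scaled to the mapped reads of the library). The build is mm10 per the submitters' processing notes, which also name DESeq2, the tool behind the authors' own comparison, not used here. The same table was deposited 6 times and read once, and 0 of its columns lacked a sample. Every value was a whole multiple of the library's step within 0.1 step (100% of values), which gave junction reads and the floor of 3 reads. A floor covers counting error only, and not a circle that was left uncalled in a library.

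Host symbols were matched for 3466 of 3469 Ensembl genes, and circles were placed on GENCODE M21 exons. Values were tested as log2(SRPBM + 17.1), the smallest value above 0, with limma 3.58.1 (lmFit and eBayes with trend, two-sided, R 4.3.3) over all circRNAs or hosts above 0 in at least 3 of 6 libraries, with Benjamini-Hochberg adjustment over the whole table. The test was also run on simulated data. That run is not reported here, and no conclusion about circles of few reads is drawn from it. Fold changes on this scale understate changes of low circles. Summed levels and shares carry no test. p-values measure the spread between mice.

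Members and lists were chosen with earlier results of these data known. Named were the 15 highest circles, the highest host of each family (1 of them is not reported here), the 5 hosts with the most circles, every circle or host past the threshold, up to 5 of the highest and of the lowest fold changes without overlap (4 circles had TLE below Control), and circles singled out after their values were seen (the Ubr3, Klhl2, Klhl8 and Fbxw4 pairs and other circles or hosts without overlap). Alternatives were other pseudocounts, filters, scaling, variance trend, replicate block, fold threshold, name rule and leaving out each library.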

Additional observations from a re-analysis of the deposited data

How the results depend on the processing

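The counts of ubiquitin circles past the threshold rested on few reads, since 67.5% of the 314 had at most 10 reads over the 6 libraries, and they moved with most settings. Reported were 2 higher and 0 lower circles and 1 higher and 1 lower host. With a pseudocount of 8.5457 (5 and 1 circles), or of 1 SRPBM (5 and 1 circles, 0 and 0 hosts), the counts changed, and the smallest adjusted p in limma among ubiquitin circles was 0.729 and 0.267. With only features whose mean was at or above the median there were 0 circles and 0 hosts in either direction. At a log2 fold change of 1 there were 8 higher and 1 lower circles and 2 higher hosts. At equal total SRPBM, the numbers were 1 and 0 circles and 0 and 1 hosts, and the summed SRPBM of TLE minus Control fell from 1692 to 197. Leaving out 1 library gave 0 to 5 higher and 0 to 3 lower circles, and 0 to 4 higher and 0 to 3 lower hosts. The smallest adjusted p was then between 0.29 and 0.98. Without TLE 2 there were 0 higher circles, and without Control 2 there were 5. Without a library the summed SRPBM of TLE minus Control ranged from 773 to 2514 and the share from 0.0298 to 0.0743 percentage points, the latter being 0.00936 with circles above 0 in at least 3 libraries only, against 0.0519 as reported. The cause of these moves was not tested.

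Among 47 named circles and hosts, none of the direction changes concerned one past the threshold. At equal total SRPBM the log2 fold change turned negative for the Herc4 circle (-0.0756), the Usp3 circle (-0.19) and the hosts Herc4 (-0.17), Itch (-0.0826), Ube4b (-0.13), Klhl2 (-0.0745) and Rnf169 (-0.0472). Without 1 library the log2 fold change of the highest circles ranged from -0.13 to 0.42 for Herc4, from -0.23 to 0.50 for Usp3, from -0.34 to 0.0297 for Ube2k, from -0.0453 to 0.56 for Ube2e3 and from -0.22 to 0.21 for Ubr3 mmu_circ_0006339. Over whole hosts it ranged from -0.84 to 0.12 for Fbxo16, from -0.26 to 0.42 for Herc4, from -0.17 to 0.58 for Huwe1, from -0.33 to 0.41 for Itch, from -0.0224 to 0.26 for Klhl2, from -0.77 to 0.24 for Mib1, from -0.0556 to 0.33 for Rnf169, from -0.34 to 0.0519 for Ube2k and from -0.67 to 0.41 for Ube4b.

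With the replicate number as a block the counts were 2 and 0 circles and 1 and 1 hosts, as without it. Same-numbered libraries of the 2 groups deviated together with correlations of 0.0103 to 0.0192, under 0.1, so the numbers were not taken as pairs, although every library correlated best with its own number. The Ubr3 circle mmu_circ_0006331 had an unadjusted p of 0.0094 with the block, against 0.060 without it, at the same log2 fold change of 1.496. With no filter and without the variance trend the counts were also 2 and 0 circles and 1 and 1 hosts, and the wider name rule took the same 314 circles. The smallest adjusted p among ubiquitin circles was 0.0867 with no filter and 0.479 without the trend. With no filter the Ubr3 circle mmu_circ_0006331 had an unadjusted p of 8.5e-05 in limma. Its log2 fold change rested on the 0 in Control 1, and was 0.11 without that library in the main setting. Count tests on junction reads were planned and not run, since the deposited table is a normalized signal in which no value of 1 read is listed.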
